A study of Mus musculus with 5 samples.

Results

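Shikonin and TEPP-46 are small molecules aimed at the same enzyme, the M2 form of pyruvate kinase (PKM2), which carries out the last step of glycolysis. Shikonin, a naphthoquinone from the root of a medicinal plant, is a common inhibitor of PKM2. TEPP-46 is known for the opposite action, stabilising the active tetramer, although the title of the study speaks of inhibition. The comparison set the library of cells given shikonin for 8 h against the library of cells given TEPP-46 for 8 h, which are 2 of the 5 libraries of the series. The other libraries were vehicle control for 8 h, shPKM2 for 72 h and shControl for 72 h. All came from proliferating C2C12 cells, an immortal mouse myoblast line, grown in high-glucose medium with fetal serum, and poly(A) RNA was sequenced. Each condition had 1 library, and the labels give neither the doses nor the vehicle, so that no test was possible and every difference describes these libraries only. The compounds are not analogs of each other.

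The table lists 23361 genes. The comparison kept 11128 of them, those averaging 1 FPKM or more across the 5 libraries (FPKM: fragments per kilobase of transcript, scaled to the size of the library). Differences are of log2(FPKM + 1), shikonin minus TEPP-46, so that a positive value means a higher level in the shikonin library. The added 1 understates the difference of low genes. The leading ones are given with a standard error (SE) for read counting alone, which says nothing of how replicate cultures would vary. Depth, estimated from the steps of low FPKM values, was about 22300000 reads in the shikonin library, 24100000 reads in the TEPP-46 library and 30800000 reads in the vehicle library. All 10 myoblast markers examined were above 1 FPKM in at least one of these libraries, led by desmin (Des) at 171 FPKM with shikonin against 254 FPKM with TEPP-46. Of 26 markers of leucocytes, endothelium, epithelium, neurons, adipocytes and erythroid cells in the table, 21 were under 1 FPKM in both libraries. The exceptions were Cd14, Krt14, Tubb3, Syn1 and Hba-a1.

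RNAs that lack a poly(A) tail differed between the libraries, although the libraries were made from poly(A) RNA. The ribosomal precursor Rn45s had 712 FPKM with shikonin, 249 FPKM with TEPP-46 and 512 FPKM with vehicle. The RNase subunits Rmrp and Rpph1 had 19.1 and 7.06 FPKM with shikonin against 3.73 and 1.19 FPKM with TEPP-46. Lars2, the mitochondrial leucyl-tRNA synthetase, is a protein-coding gene that was read beside them. It had 171 FPKM with shikonin, 37.7 FPKM with TEPP-46 and 98.0 FPKM with vehicle (difference 2.15). TEPP-46 was the lowest of the 3 libraries in these genes. Of 6439 genes under the minimum mean but above 0 in some library, 4959 were above 0 with shikonin, 4168 with TEPP-46 and 4403 with vehicle. They held 0.199% of all FPKM with shikonin, 0.157% with TEPP-46 and 0.150% with vehicle. The part of either difference in the gene results was not tested.

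Cells answer damaged proteins through several programmes. Heat shock factor 1 raises chaperones that refold proteins, while the proteasome and the lysosome remove those that cannot be refolded, and NRF2 raises enzymes that detoxify reactive molecules. The integrated stress response slows translation and, through ATF4, raises genes for amino acid supply, and metal-responsive factor 1 raises metallothioneins, small proteins that bind zinc and copper.

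The shikonin library was higher in cytosolic chaperones, proteasome subunits, ubiquitin genes and NRF2 targets. The TEPP-46 library was higher in ATF4-linked metabolic genes, metallothioneins, mitotic genes and muscle genes. At the size of 2-fold, 405 genes (3.64% of those compared) were higher with shikonin and 405 (3.64%) were lower, together 7.28%. Most genes differed little: the quartiles lay at -0.37 and 0.28, and the median difference of all genes was -0.04. By direction alone, 46.6% of all genes were higher with shikonin and 53.1% lower, the shares to set beside the counts of each list. Just inside and just outside the 2-fold limit, the differences were 1.0001 and 0.9996 on the higher side and -1.0032 and -0.9993 on the lower side. Genes under 300 nt and small RNA genes made up 80 of those compared, of which 24 were at least 2-fold higher and 4 lower, leaving 381 higher and 401 lower among longer genes. Among longer genes, 33 passed 4-fold on the higher side and 11 on the lower side, and past 8-fold there were 9 and 0. The short genes, named no further, added 17 and 4 past 4-fold and 16 and 4 past 8-fold.

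**Figure D1:**
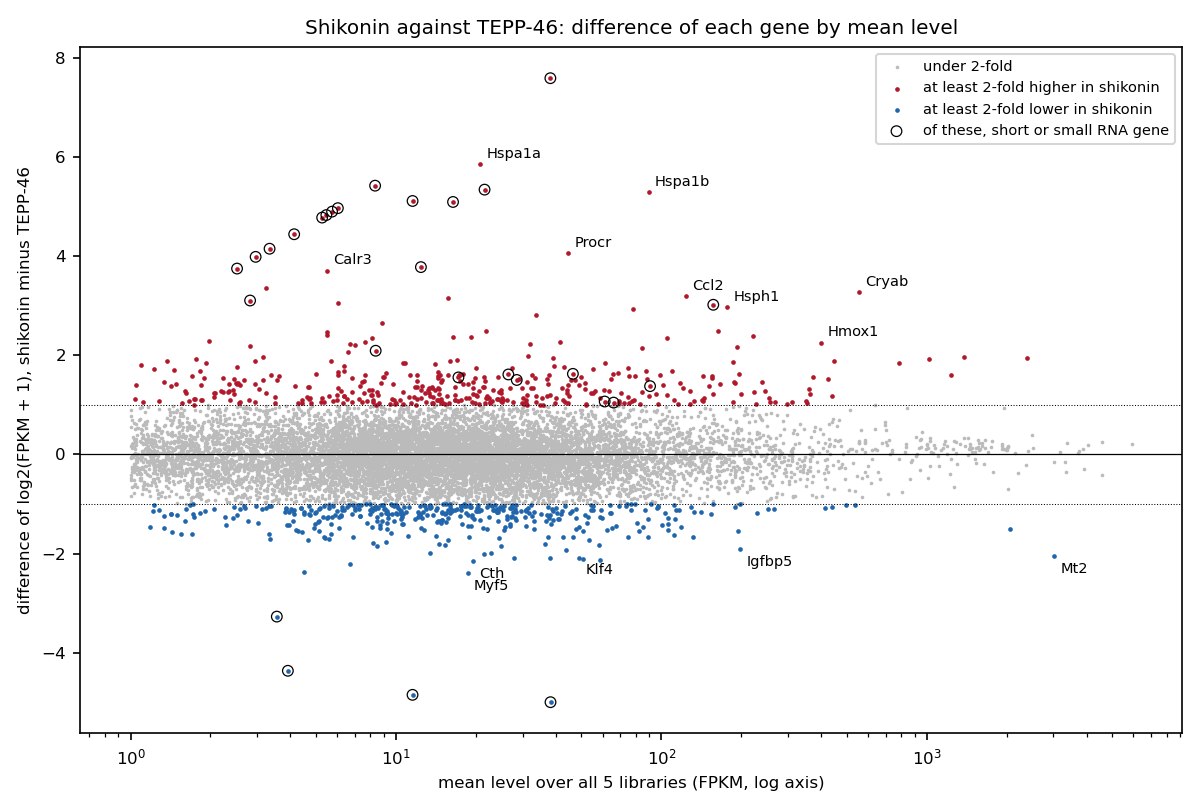
Each point is 1 of 11128 genes, with its mean level over all 5 libraries (FPKM, log axis) against the difference of log2(FPKM + 1), shikonin minus TEPP-46. Dotted lines mark 2-fold, red points are the 405 genes at least 2-fold higher, blue points the 405 at least 2-fold lower, and open circles mark short or small RNA genes. Hspa1a and Hspa1b stand at 5.85 and 5.29, while Mt2 is a very abundant gene on the lower side at -2.05.

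Among longer genes averaging 5 FPKM or more, the highest differences belonged to the inducible HSP70 chaperones. Hspa1a stood at 100.3 FPKM in the shikonin library, 0.759 FPKM in the TEPP-46 library and 1.06 FPKM in the vehicle library, a difference of 5.85 (SE 0.09). Its neighbour Hspa1b stood at 383 FPKM with shikonin, 8.84 FPKM with TEPP-46 and 12.8 FPKM with vehicle, a difference of 5.29 (SE 0.05). Both were high with shikonin alone. The genes are near-identical copies whose reads the counting may have split between them, so their separate levels are uncertain. The minimum of 5 FPKM is a mean that includes the shikonin library. Hspa1a, Calr3, Nppb, Mocos, Dedd2 and Mmp10 reached it only through that library. Without it, Hspa1a would also miss the minimum of 1 FPKM. None of the 15 lowest genes depended on the TEPP-46 library in this way.

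The promoter of Hspa1a is shown because it carries a match to a heat shock element in the gene with the highest difference among longer genes. It lies at chr17:34972107-34972406 on the minus strand of GRCm38.p6, from RefSeq, and covers 250 bases before to 50 bases after the start. Capitals mark 2 inverted heat shock units, GAANNTTC. The Hspa1b promoter has the same base at 296 of 300 positions (98.7%).
Hspa1a: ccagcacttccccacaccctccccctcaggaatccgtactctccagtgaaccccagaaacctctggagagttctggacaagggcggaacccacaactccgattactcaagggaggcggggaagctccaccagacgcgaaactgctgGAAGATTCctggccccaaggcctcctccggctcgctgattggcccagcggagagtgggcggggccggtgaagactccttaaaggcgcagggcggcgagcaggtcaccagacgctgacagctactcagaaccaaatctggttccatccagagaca

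Of 11128 genes compared, 8891 (79.9%) had a promoter in the RefSeq table. The 2-unit element, GAANNTTC or TTCNNGAA read on both strands, was a motif chosen after its matches had been seen. It was present in 7 of 17 promoters of the HSP70 list (41.2%), in all 3 promoters found for small heat shock proteins, and in 13.8% of all promoters. It was also in 4 of 11 promoters of the serine and one-carbon list (36.4%), which was mostly lower with shikonin. In the HSP70 list, the 7 genes with a match had a median difference of 1.84, and the 10 without one had 0.45. A match describes these letters only, not a bound site. The 3-unit form was in 0.56% of all promoters and in 2 of the 17.

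Around HSP70, its partners were higher too. Of 21 cytosolic HSP70, HSP90 and partner genes, 17 were higher with shikonin and 7 passed 2-fold, with none 2-fold lower. Their median difference was 0.86, against -0.04 for all genes. Hsph1, a nucleotide exchange factor of HSP70, had 514 FPKM with shikonin, 64.9 FPKM with TEPP-46 and 89.2 FPKM with vehicle, a difference of 2.96 (SE 0.01). The constitutive HSP70 gene Hspa8 had 4645 FPKM with shikonin, 1213 FPKM with TEPP-46 and 2133 FPKM with vehicle (difference 1.94, SE 0.0046). Here the TEPP-46 library was also below vehicle. Hsp90aa1, the stress-inducible HSP90, had 2332, 615 and 705 FPKM in the shikonin, TEPP-46 and vehicle libraries (difference 1.92). The co-chaperone Bag3, which links HSP70 to selective autophagy, differed by 1.84.

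Small heat shock proteins hold unfolded clients until HSP70 takes them. Cryab, the alpha-B crystallin of muscle, had 1802 FPKM with shikonin, 186 FPKM with TEPP-46 and 214 FPKM with vehicle (difference 3.27, SE 0.02). Hspb1 had 3699, 950 and 849 FPKM in the same order of libraries, a difference of 1.96, and Hspb8, the partner of Bag3, differed by 1.17. The muscle members Hspb6 and Hspb2 were slightly lower with shikonin, at -0.32 and -0.26, so the members differed in direction. Among DNAJ proteins, which bring clients to HSP70, 10 of 12 were higher and 4 passed 2-fold, with a list median of 0.69. Dnajb1 led them with 274 FPKM with shikonin, 52.9 FPKM with TEPP-46 and 69.1 FPKM with vehicle (difference 2.35).

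Chaperonins fold proteins in closed chambers, and a list of 11 genes, mainly subunits of the cytosolic chaperonin, had a median of 0.33 with none past 2-fold. The mitochondrial Hspe1 and Hspd1 differed by 0.90 and 0.50, while Hspa9, the mitochondrial HSP70 in the same list, was lower at -0.27. In the endoplasmic reticulum, 18 of 23 genes were higher with shikonin, 3 passed 2-fold and the median was 0.37. Syvn1, a ubiquitin ligase of that compartment, differed by 1.13, and Hspa5, its HSP70, had 1248 FPKM with shikonin, 790 FPKM with TEPP-46 and 360 FPKM with vehicle. Hspa5 was thus above vehicle in both compound libraries. Herpud1, which takes part in degradation from that compartment, went the other way at -0.77.

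All 32 proteasome genes measured, subunits and the assembly factor Pomp, were higher with shikonin. Of these, 17 passed 2-fold, with a median of 1.02 and a range of 0.20 to 1.61. Psma5, of the catalytic core, had 391 FPKM with shikonin, 127 FPKM with TEPP-46 and 155 FPKM with vehicle. Psmd1, of the regulatory cap, had 256 FPKM with shikonin, 84.5 FPKM with TEPP-46 and 122 FPKM with vehicle. The vehicle level of both genes lay nearer to TEPP-46 than to shikonin.

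Genes that supply ubiquitin, the tag read by the proteasome, were higher as well. Ubb had 989 FPKM with shikonin, 266 FPKM with TEPP-46 and 269 FPKM with vehicle (difference 1.89), so TEPP-46 and vehicle were almost level. Zfand2a, a proteasome-associated zinc finger protein known as AIRAP, had 247 FPKM with shikonin, 31.3 FPKM with TEPP-46 and 23.3 FPKM with vehicle (difference 2.94). The segregase Vcp, which pulls ubiquitinated proteins apart, differed by 1.22, and its cofactor Nploc4 by 1.44. In this list 8 of 16 genes passed 2-fold higher and none lower, with a median of 1.01. The ubiquitin hydrolase Uchl1 was also among the 15 highest genes, with 69.9, 11.7 and 12.6 FPKM in the shikonin, TEPP-46 and vehicle libraries.

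NRF2 targets were higher in 32 of 33 cases, 12 of them by at least 2-fold and none lower by that size, with a median of 0.76. Hmox1, the haem-degrading enzyme, had 1361 FPKM with shikonin, 285 FPKM with TEPP-46 and 56.9 FPKM with vehicle (difference 2.25, SE 0.0145). Osgin1, an oxidative stress growth inhibitor, had 121 FPKM with shikonin, 16.5 FPKM with TEPP-46 and 9.29 FPKM with vehicle (difference 2.80). For both genes TEPP-46 lay between shikonin and vehicle. The peroxidase Prdx1 had 1782, 495 and 512 FPKM in the shikonin, TEPP-46 and vehicle libraries (difference 1.85), with TEPP-46 near vehicle. Srxn1, which repairs peroxiredoxins, differed by 1.45, and the biliverdin reductase Blvrb by 1.95. The one member lower with shikonin was Gsta2, a glutathione transferase, at -0.37. The antioxidant response element TGACNNNGC, read on both strands, was in 9 of 28 promoters of the list (32.1%) and in 17.0% of all promoters. It was also in 7 of 22 promoters of the integrated stress response list (31.8%), where most genes were lower with shikonin, and in 6 of 15 of the metallothionein and zinc list (40.0%). Within the NRF2 list, the 9 genes with it had a median difference of 1.05 and the 19 without it 0.51.

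Autophagy and lysosome genes were higher in 27 of 29 cases, with 7 past 2-fold and a median of 0.61. Sqstm1, the receptor p62 that brings ubiquitinated cargo to autophagosomes and is also an NRF2 target, had 3339 FPKM with shikonin, 1099 FPKM with TEPP-46 and 333 FPKM with vehicle (difference 1.60). Gabarapl1, of the autophagosome membrane, had 187 FPKM with shikonin, 55.2 FPKM with TEPP-46 and 46.7 FPKM with vehicle (difference 1.75). The lysosomal protease Ctsd differed by 1.55. Mcoln1, a lysosomal calcium channel, was lower at -0.41.

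Genes that p53 can activate were higher in 19 of 23 cases, 6 of them past 2-fold, with a median of 0.59. Mdm2, the ubiquitin ligase that restrains p53, had 174 FPKM with shikonin, 53.8 FPKM with TEPP-46 and 51.8 FPKM with vehicle (difference 1.67). Trp53inp1, a stress-induced p53 cofactor, differed by 2.22, and the kinase inhibitor Cdkn1a by 0.91. Not all members followed: Rrm2b, a p53-inducible ribonucleotide reductase subunit, was lower at -0.84. Of 13 BCL2 family genes, which set the threshold for apoptosis, the death promoter Bcl2l11 alone passed 2-fold with the added 1, at 1.06. With a pseudocount of 0.1, 2 passed 2-fold higher and 1 lower. The protective Bcl2 had 0.661 FPKM with shikonin, 1.99 FPKM with TEPP-46 and 1.75 FPKM with vehicle.

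Several secreted and inflammatory genes were among the 15 highest. The chemokine Ccl2 had 40.8 FPKM with shikonin, 3.57 FPKM with TEPP-46 and 13.5 FPKM with vehicle, so TEPP-46 was below vehicle and shikonin above it. In the 72 h libraries Ccl2 was far higher, with 203 FPKM in shPKM2 and 359 FPKM in shControl. The protein C receptor Procr had 170.0 FPKM with shikonin, 9.25 FPKM with TEPP-46 and 10.95 FPKM with vehicle (difference 4.06), and the natriuretic peptide Nppb differed by 3.15. Of 19 chemokine and inflammatory genes, 5 passed 2-fold higher and none lower. Ptgs2, the inducible cyclooxygenase, had 345, 115 and 46.4 FPKM in the shikonin, TEPP-46 and vehicle libraries. Interferon-stimulated genes had a median of 0.28 and none passed 2-fold on this scale, but 12 of 22 were under 1 FPKM in both libraries, where the added 1 keeps a difference small. With a pseudocount of 0.1 the median was 0.77 and 6 passed 2-fold higher, and with a pseudocount of 5 the median was 0.08.

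**Figure D2:**
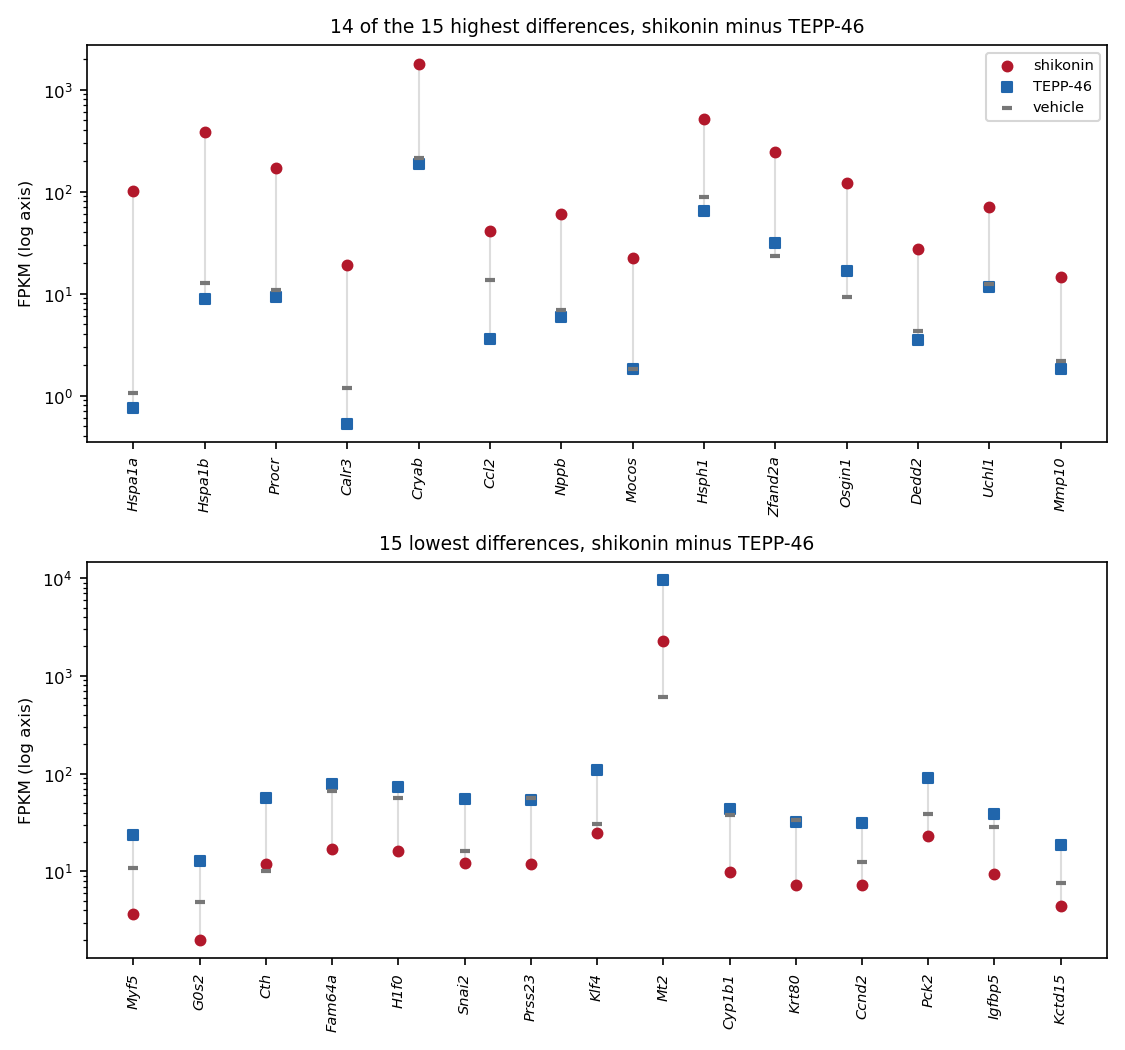
FPKM (log axis) of 14 of the 15 genes with the highest (top) and the 15 with the lowest (bottom) difference, shikonin minus TEPP-46. Circles are shikonin, squares TEPP-46 and dashes vehicle, with 1 library each. In the top panel vehicle lies close to TEPP-46 for most genes, as for Uchl1 at 11.7 and 12.6 FPKM with TEPP-46 and vehicle, while in the bottom panel vehicle lies near TEPP-46 for some genes and near shikonin for others, such as Klf4.

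The integrated stress response was split, with most genes higher with TEPP-46. Of 27 genes, 22 were lower with shikonin and 6 passed 2-fold lower, while 1 passed 2-fold higher, with a median of -0.68. Cth, which makes cysteine from cystathionine, had 11.8 FPKM with shikonin, 55.9 FPKM with TEPP-46 and 10.0 FPKM with vehicle (difference -2.15, SE 0.05). Trib3, a pseudokinase that feeds back on this pathway, had 47.5 FPKM with shikonin, 160 FPKM with TEPP-46 and 13.3 FPKM with vehicle (difference -1.73). Shikonin was near vehicle for Cth and between vehicle and TEPP-46 for Trib3. The order seen for Trib3 also held for Atf4, with 407, 737 and 239 FPKM in the shikonin, TEPP-46 and vehicle libraries. It held for Ddit3 too, with 195, 243 and 28.0 FPKM. Set against vehicle, the list as a whole was higher in both compound libraries, by 0.91 for shikonin and 1.62 for TEPP-46 at the middle member.

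The other members past 2-fold lower were Vldlr, a lipoprotein receptor, the transcription factor Atf5, the secreted Stc2 and the glutathione-degrading Chac1, with differences of -1.60, -1.47, -1.40 and -1.12. Atf5 had 77.1 FPKM with shikonin, 215 FPKM with TEPP-46 and 111 FPKM with vehicle, so shikonin was below vehicle. The opposite direction was taken by Gdf15, a stress hormone, with 296 FPKM with shikonin, 108 FPKM with TEPP-46 and 34.1 FPKM with vehicle (difference 1.45). Ppp1r15a, which ends the translation block, differed by 0.86, and the cystine transporter Slc7a11 by 0.76. Both libraries were above vehicle in those 3 genes.

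The Trib3 and Asns promoters are shown because they carry the CHOP-ATF composite element, TGATGNAA, which capitals mark on either strand. Asns makes asparagine. Trib3 lies at chr2:152344011-152344310 and Asns at chr6:7693160-7693459, both on the minus strand of GRCm38.p6, from RefSeq. The element was in 11 of 22 promoters of the list and in 2.67% of all promoters. The 11 genes with a match had a median difference of -0.71, and the 11 without one had -0.20.
Trib3: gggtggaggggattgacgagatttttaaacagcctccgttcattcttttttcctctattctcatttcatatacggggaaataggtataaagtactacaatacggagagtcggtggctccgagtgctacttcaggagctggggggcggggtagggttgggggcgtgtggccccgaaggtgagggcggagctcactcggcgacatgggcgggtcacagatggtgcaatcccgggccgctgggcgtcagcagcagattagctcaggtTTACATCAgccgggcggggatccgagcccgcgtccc
Asns: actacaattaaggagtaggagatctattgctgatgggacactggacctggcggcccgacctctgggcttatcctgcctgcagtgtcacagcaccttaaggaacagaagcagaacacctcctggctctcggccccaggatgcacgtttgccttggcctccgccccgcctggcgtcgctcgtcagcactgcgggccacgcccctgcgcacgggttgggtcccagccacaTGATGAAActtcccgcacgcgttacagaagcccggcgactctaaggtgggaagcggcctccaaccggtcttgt

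Serine and one-carbon metabolism, which ATF4 also feeds, was lower with shikonin in 11 of 14 genes, 4 of them by 2-fold, with a median of -0.72. The leading genes act in mitochondria. Aldh1l2 had 25.8 FPKM with shikonin, 92.6 FPKM with TEPP-46 and 25.9 FPKM with vehicle (difference -1.80), and Mthfd2 had 76.2, 204 and 97.0 FPKM in the same order (difference -1.41). Shikonin stood at vehicle level in the first and below it in the second. Mthfd1l and Shmt2 differed by -1.20 and -1.01. Pck2, the mitochondrial enzyme that makes phosphoenolpyruvate, had 23.1 FPKM with shikonin, 90.2 FPKM with TEPP-46 and 38.7 FPKM with vehicle (difference -1.92).

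Cytosolic tRNA synthetases, which load amino acids onto tRNA, were lower with shikonin in 15 of 20 genes, against 53.1% of all genes. None passed 2-fold and the median was -0.39. Among 14 amino acid transporters the median was -0.18. Slc7a5, a carrier of large neutral amino acids, passed 2-fold lower with 93.1 FPKM with shikonin, 213 FPKM with TEPP-46 and 93.8 FPKM with vehicle. Its heavy chain Slc3a2, shared with Slc7a11, was higher with shikonin at 0.71.

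**Figure D3:**
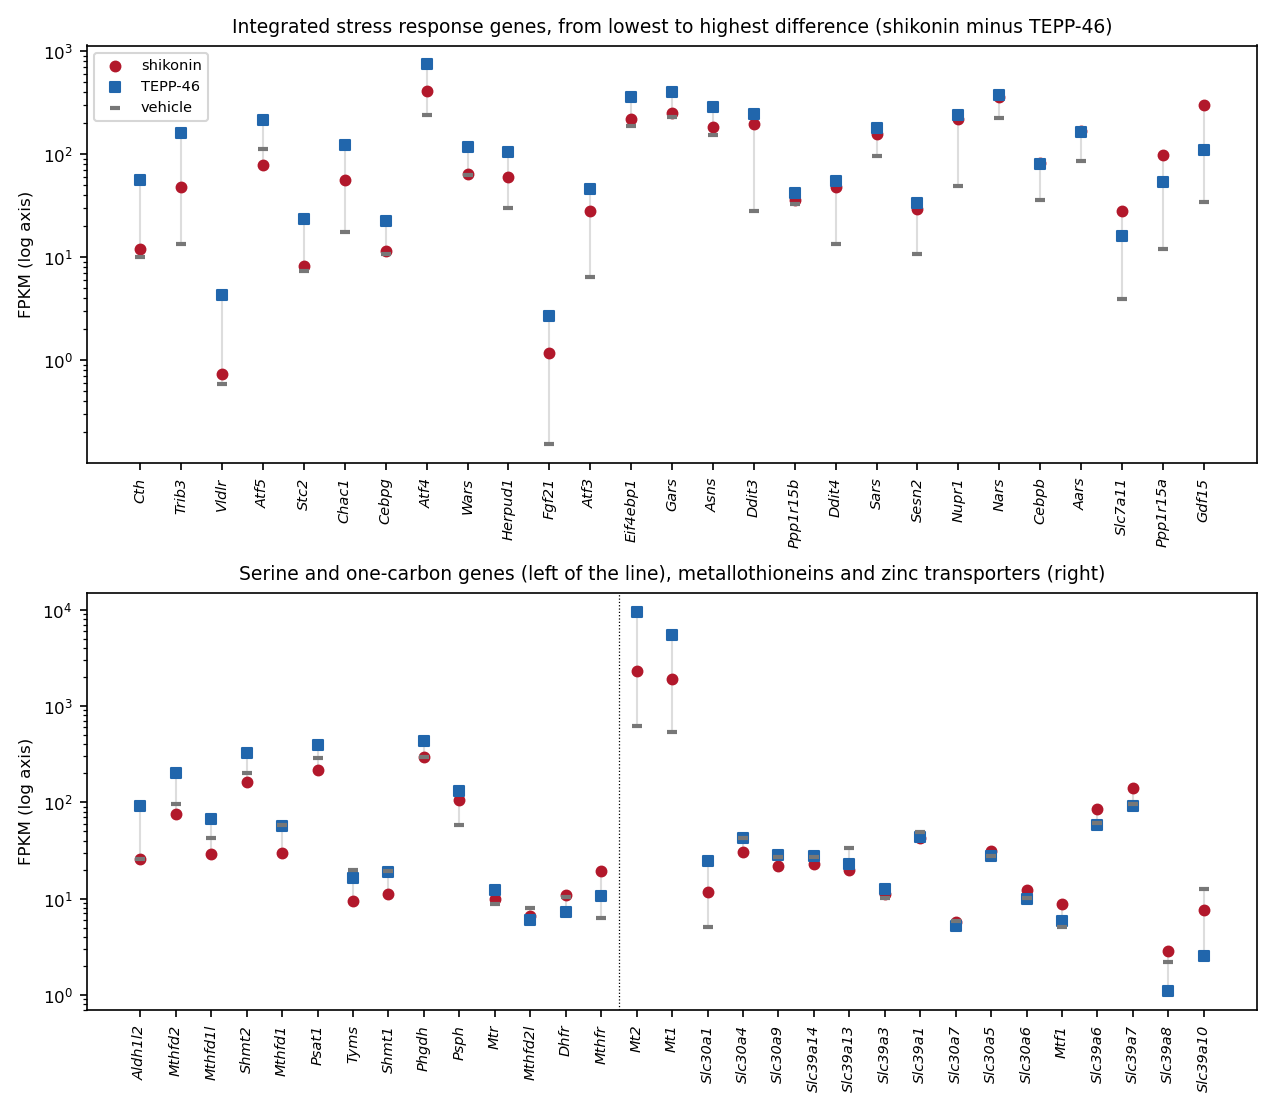
FPKM (log axis) of integrated stress response genes (top), and of serine and one-carbon genes and metallothioneins with zinc transporters (bottom), each list sorted from the lowest to the highest difference. Circles are shikonin, squares TEPP-46 and dashes vehicle, with 1 library each. TEPP-46 lies above shikonin at the left of each list, as for Trib3 at 47.5 FPKM with shikonin against 160 FPKM with TEPP-46, and below it for Gdf15 at the right of the top panel.

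Metallothioneins were abundant and were higher with TEPP-46. Mt2 had 2297 FPKM with shikonin, 9511 FPKM with TEPP-46 and 615 FPKM with vehicle (difference -2.05, SE 0.01). Mt1 had 1909 FPKM with shikonin, 5452 FPKM with TEPP-46 and 543 FPKM with vehicle (difference -1.51). Both compound libraries were above vehicle, TEPP-46 further. The zinc exporter Slc30a1 had the same order, with 11.7, 24.8 and 5.01 FPKM in the shikonin, TEPP-46 and vehicle libraries (difference -1.02). The importer Slc39a10 went the other way, with 7.67 FPKM with shikonin, 2.53 FPKM with TEPP-46 and 12.5 FPKM with vehicle (difference 1.30). The median of the 17 genes was -0.03, or 0.01 when centred on the median of all genes.

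The Mt2 and Mt1 promoters are shown for their repeated metal response elements, TGCACNC or TGCGCNC, which capitals mark on either strand. They lie on the plus strand of GRCm38.p6, from RefSeq, at chr8:94172368-94172667 and chr8:94178839-94179138, and hold 4 and 3 matches. The motif is short and was in 41.3% of all promoters, and in 8 of 15 promoters of the list. The 8 genes with it had a median difference of -0.35 and the 7 without it 0.28.
Mt2: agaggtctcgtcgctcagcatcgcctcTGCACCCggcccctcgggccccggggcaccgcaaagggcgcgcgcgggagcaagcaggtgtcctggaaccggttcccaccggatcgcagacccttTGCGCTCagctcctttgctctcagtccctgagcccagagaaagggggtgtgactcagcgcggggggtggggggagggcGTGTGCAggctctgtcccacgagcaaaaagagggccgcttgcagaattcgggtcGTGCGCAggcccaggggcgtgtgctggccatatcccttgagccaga
Mt1: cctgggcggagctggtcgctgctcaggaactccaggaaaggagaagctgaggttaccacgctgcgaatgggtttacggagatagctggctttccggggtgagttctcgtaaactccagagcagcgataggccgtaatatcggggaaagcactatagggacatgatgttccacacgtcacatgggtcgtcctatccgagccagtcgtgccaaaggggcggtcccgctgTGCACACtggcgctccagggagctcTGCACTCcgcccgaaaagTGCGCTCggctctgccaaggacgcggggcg

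Genes of cell division were lower with shikonin in nearly all cases. All 33 genes of G2 and mitosis were lower, 24 of them by at least 2-fold, with a median of -1.19. Fam64a, a mitotic regulator also called PIMREG, had 17.0 FPKM with shikonin, 77.9 FPKM with TEPP-46 and 67.1 FPKM with vehicle (difference -2.14, SE 0.05). Ccna2, a cyclin of S phase and mitosis, had 30.0, 97.7 and 112 FPKM in the shikonin, TEPP-46 and vehicle libraries (difference -1.67), and Birc5, or survivin, differed by -1.66. In all 3 genes TEPP-46 was near vehicle and shikonin below both. The G1/S and replication list had 30 of 32 genes lower, 5 of them past 2-fold, with a median of -0.47. Prim1, the primase subunit, led them at -1.31, while Pcna, the replication clamp, differed by 0.09. Set against vehicle, the median of the G1/S and replication list was -0.93 for shikonin and -0.28 for TEPP-46. Tk1, for example, had 22.7 FPKM with shikonin, 46.7 FPKM with TEPP-46 and 85.7 FPKM with vehicle. Ccnd2, the cyclin D2 gene, had 7.21 FPKM with shikonin, 31.5 FPKM with TEPP-46 and 12.4 FPKM with vehicle, so that TEPP-46 was farther from vehicle than shikonin was.

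The promoters of Ccnb2, a mitotic cyclin, and Racgap1, a cytokinesis factor, carry the cell cycle homology region TTTGAA, marked in capitals. They lie on the minus strand of GRCm38.p6, from RefSeq, at chr9:70421505-70421804 and chr15:99651607-99651906. The element, read on both strands, was in 19 of 28 promoters of the mitotic list (67.9%) and in 14.1% of all promoters. Within the list, the 19 genes with it had a median difference of -1.13 and the 9 without it -1.28.
Ccnb2: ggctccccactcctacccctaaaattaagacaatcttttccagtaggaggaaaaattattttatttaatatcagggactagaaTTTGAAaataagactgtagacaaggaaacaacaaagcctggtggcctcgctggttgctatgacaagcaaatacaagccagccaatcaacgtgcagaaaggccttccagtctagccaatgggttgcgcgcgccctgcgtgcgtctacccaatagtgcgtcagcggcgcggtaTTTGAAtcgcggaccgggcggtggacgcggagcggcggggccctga
Racgap1: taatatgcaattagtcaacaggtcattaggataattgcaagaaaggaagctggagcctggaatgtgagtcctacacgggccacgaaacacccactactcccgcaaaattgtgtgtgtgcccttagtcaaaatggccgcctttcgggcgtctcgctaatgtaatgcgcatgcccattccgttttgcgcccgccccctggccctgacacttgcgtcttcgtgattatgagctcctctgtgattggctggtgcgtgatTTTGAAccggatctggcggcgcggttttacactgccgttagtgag

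Most muscle genes were lower with shikonin. Myf5, a determination factor of myoblasts, had the lowest difference among longer genes averaging 5 FPKM or more, with 3.69 FPKM with shikonin, 23.7 FPKM with TEPP-46 and 10.7 FPKM with vehicle (difference -2.39, SE 0.10). The vehicle level lay between the compounds. Myog, which drives differentiation, had 0.278 FPKM with shikonin, 5.66 FPKM with TEPP-46 and 5.30 FPKM with vehicle (difference -2.38), and Myod1 had 26.1, 52.3 and 63.2 FPKM in the same order (difference -0.98). In those 2 genes TEPP-46 stood near vehicle. Of 22 myogenic and identity genes, 18 were lower and 4 passed 2-fold, with a median of -0.38. All 20 genes of a sarcomere and contraction list were lower, 5 by 2-fold, with a median of -0.67. The list also holds acetylcholine receptor and calcium-handling genes, such as Chrna1 and Atp2a1. The number past 2-fold lower was 10 with a pseudocount of 0.1 and 1 with a pseudocount of 5. Skeletal actin Acta1 had 11.8 FPKM with shikonin, 31.0 FPKM with TEPP-46 and 25.7 FPKM with vehicle.

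Most cytoskeletal, YAP and matrix genes were lower with shikonin, with exceptions in each list. A list of 19 genes held targets of serum response factor, its gene Srf and other cytoskeletal genes. Of these, 17 were lower and 2 passed 2-fold, with a median of -0.54, led by Fhl1 at -1.51. A list of 20 genes held targets of YAP and TEAD, which respond to cell tension, together with those factors and their cofactors. Of these, 13 were lower and 7 higher, with a median of -0.39. By 2-fold, 3 were lower and none higher. They were the targets Ctgf and Ankrd1 and the TEAD cofactor Vgll2, at -1.66, -1.07 and -1.76. Ctgf had 13.6 FPKM with shikonin, 45.3 FPKM with TEPP-46 and 118 FPKM with vehicle, so both compounds were below vehicle, while Cyr61, another secreted matrix protein, differed by 0.15. The TEAD motif GGAATG, read on both strands, was in 12 of 15 promoters of the list and in 13.9% of all promoters. The 12 genes with it had a median difference of -0.39 and the 3 without it -0.70. Of 25 collagen and crosslinking genes, 20 were lower, 3 of them by 2-fold, and 2 passed 2-fold higher, with a median of -0.24. Of 22 matrix glycoprotein and proteoglycan genes, 16 were lower, 5 of them by 2-fold, and 1 passed 2-fold higher, with a median of -0.44. The matrix genes Col3a1, Tnc and Vcan differed by -1.63, -1.46 and -1.30, while Nid1 was higher at 0.67. Collagen-modifying enzymes differed in direction: the hydroxylases Plod2 and P4ha1 were higher at 1.19 and 1.03, while the crosslinking oxidase Lox was lower at -1.11. The protease Mmp10 was among the 15 highest genes at 2.46.

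Early response genes, among them transcription factors, also parted. Ier3, an early survival gene, had 335 FPKM with shikonin, 74.3 FPKM with TEPP-46 and 76.5 FPKM with vehicle (difference 2.16). Klf4 had 24.9 FPKM with shikonin, 109 FPKM with TEPP-46 and 30.9 FPKM with vehicle (difference -2.08), and Jund differed by -1.66. The list median was 0.06, with 3 genes past 2-fold higher and 2 lower. Snai2, a repressor of epithelial genes, resembled Klf4, with 12.2 FPKM with shikonin, 55.2 FPKM with TEPP-46 and 16.4 FPKM with vehicle. The AP-1 motif TGANTCA, read on both strands, was in 11.6% of promoters of genes at least 2-fold higher, in 3.89% of those of genes at least 2-fold lower and in 6.15% of all promoters.

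**Figure D4:**
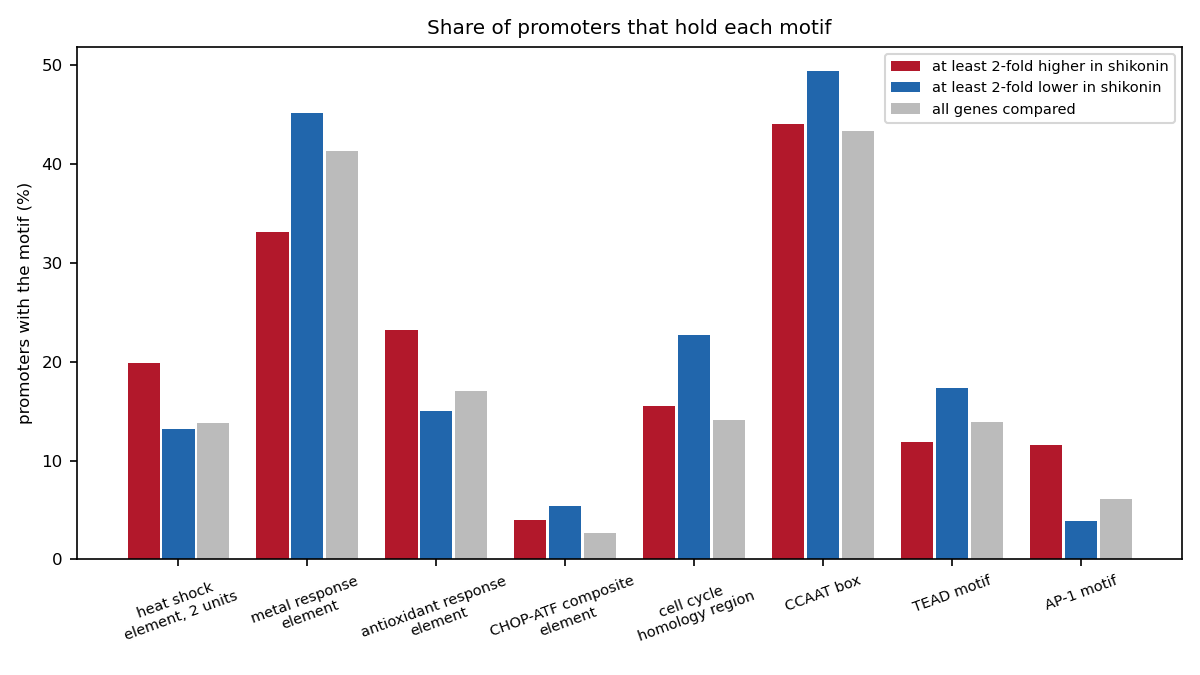
Percent of promoters that hold each motif on either strand, for genes at least 2-fold higher with shikonin (302 promoters), genes at least 2-fold lower (334) and all genes compared (8891), short genes left out of the first 2 sets. The AP-1 motif stands at 11.6%, 3.89% and 6.15%, and the cell cycle homology region at 15.6%, 22.8% and 14.1%.

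In central metabolism the list medians were small, though some genes passed 2-fold. The target gene Pkm, read here for both of its splice forms together, had 1501 FPKM with shikonin, 1198 FPKM with TEPP-46 and 1321 FPKM with vehicle (difference 0.32), and Pklr, the liver and red cell form, was listed at 0 in all 5 libraries. Of 22 glycolysis genes, only Pfkfb4, which sets a regulator of phosphofructokinase, passed 2-fold, at 1.10, and the median was 0.19. Hexokinases parted, with Hk1 at 0.68 and Hk2 at -0.92. In the pentose phosphate route, which makes NADPH, Taldo1 had 327 FPKM with shikonin, 122 FPKM with TEPP-46 and 112 FPKM with vehicle (difference 1.41), and Pgd differed by 1.05. Of 11 pentose phosphate and NADPH genes, 2 passed 2-fold higher and 1 lower, mitochondrial Idh2 at -1.04, with a median of 0.28. Genes of the TCA cycle and the respiratory chain had medians of -0.14 and -0.10, with none past 2-fold. Txnip, an inhibitor of glucose uptake that follows glucose-derived signals, had 6.11 FPKM with shikonin, 16.3 FPKM with TEPP-46 and 13.7 FPKM with vehicle (difference -1.28), and Mlx, a partner of the factor that drives it, differed by 1.14. Among hypoxia-linked genes, Ndrg1 and Vegfa were lower at -1.39 and -1.07, and Egln3 and P4ha1 higher at 1.10 and 1.03. Insig1, a brake on sterol synthesis, differed by 1.52. Cytosolic ribosomal protein genes were higher in 35 of 36 cases by small amounts, with a median of 0.14, and in 29 of 36 cases after rescaling to TPM.

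Other genes of the 15 highest and 15 lowest belonged to varied functions. Calr3, a calreticulin-like chaperone best known from testis, had 19.0 FPKM with shikonin, 0.531 FPKM with TEPP-46 and 1.20 FPKM with vehicle (difference 3.71). Mocos, which activates molybdenum enzymes, and Dedd2, a death effector domain protein, differed by 3.06 and 2.65, with vehicle near TEPP-46 in both. H1f0, the linker histone of slowly dividing cells, had 16.2 FPKM with shikonin, 72.7 FPKM with TEPP-46 and 56.4 FPKM with vehicle (difference -2.10). The serine protease Prss23, the cytochrome Cyp1b1, the keratin Krt80 and the growth factor binding protein Igfbp5 differed by -2.08, -2.02, -1.99 and -1.92, with shikonin below vehicle in each. G0s2, an inhibitor of fat breakdown, had 1.97 FPKM with shikonin, 12.8 FPKM with TEPP-46 and 4.82 FPKM with vehicle (difference -2.21), and Kctd15 differed by -1.86. In those last genes vehicle lay between the compounds.

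Haem and iron genes had a median of 0.30 with 3 of 13 past 2-fold higher, Hmox1 and Blvrb among them together with Alas1, the first enzyme of haem synthesis, at 1.11. Secreted stress factors were split, with 6 of 21 past 2-fold higher and 5 past 2-fold lower and a median of 0.25. Feedback genes of the MAP kinase path had a median of 0.21, with Spry4 at 1.10 and the phosphatase Dusp8 at -1.73. Medians were -0.26 for D cyclins, CDK inhibitors and Myc, -0.16 for TGF-beta and activin genes, -0.14 for ribosome biogenesis and -0.30 for histones. Across histones, Hist1h2bc was higher at 1.29 and H1f0 lower.

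**Figure D5:**
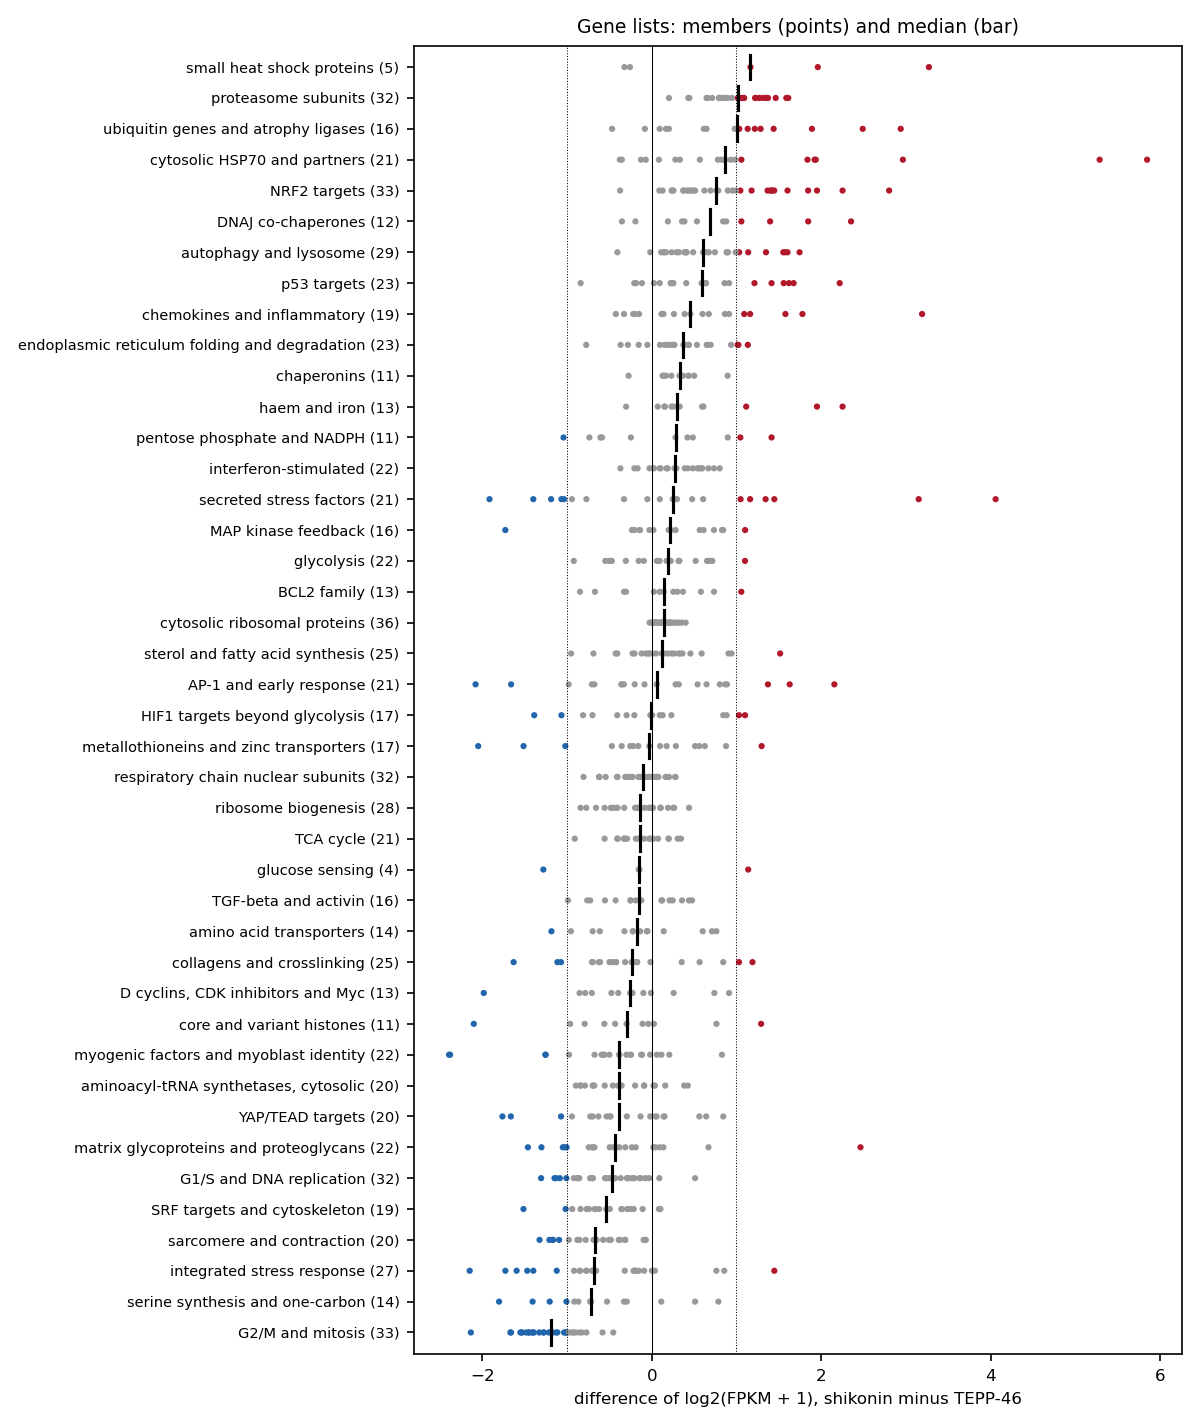
Differences of log2(FPKM + 1), shikonin minus TEPP-46, for the members (points) of 42 gene lists, with the median of each list as a bar and the number of members compared in brackets. The lists run from the highest median at the top, 1.17 for small heat shock proteins, to the lowest at the bottom, -1.19 for G2 and mitosis. Red and blue points are members at least 2-fold higher or lower.

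Longer genes at least 2-fold higher were shorter on the genome than those at least 2-fold lower, with a median span of 16752 nt against 25433 nt, and 23564 nt for all. In the fifth of genes with the longest span, 1.55% were at least 2-fold higher and 4.05% lower. Their median transcript lengths were 2807.5 nt among the higher genes, 3358 nt among the lower and 3387 nt among all.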

How the data were processed

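Poly(A) RNA of C2C12 cells was sequenced on a NextSeq500 (per the labels' protocols), with 1 library per condition. The deposited table gives FPKM per gene, as computed by the authors, for 5 libraries. The submitters' processing notes name Trim Galore 0.6.0, cutadapt, FastQC, DESeq2 1.26.0 and the build GRCm38. An aligner, a counter and an annotation are not named there. The end of the shControl column name, 30, is not explained by the labels. Differences were computed with Python 3.11.15 and pandas 2.3.3 as log2(FPKM + 1), shikonin minus TEPP-46, for genes averaging 1 FPKM or more across the 5 libraries. No test was run. Depth and counting SEs came from the steps of low FPKM values. Of 3611 low genes, 80.4% fell in whole steps within a tolerance of 0.02. The depths are approximate: the quartiles for the vehicle library were 27.47 and 32.42 on the scale where its estimate was 30.80. Gene positions and lengths came from GENCODE, with 99.37% of genes compared matched. Named genes were the 15 highest and 15 lowest differences among genes averaging 5 FPKM or more with a length of at least 300 nt, the leading members of each list, Pkm, Pklr and 4 RNAs or genes read for poly(A) selection. Asns, shown for its promoter, Atf4, Ddit3 and the genes of the closing section were chosen after their values were seen. Of the 15 highest, 14 are named, and the other is not reported here. The members and lists were chosen with earlier results of these data known.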

Additional observations from a re-analysis of the deposited data

How the results depend on the processing

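With a pseudocount of 0.1, 571 genes were at least 2-fold higher with shikonin and 624 lower, against 405 and 405 as reported. With a pseudocount of 5 the counts were 220 higher and 143 lower. A larger pseudocount shrinks low genes by construction. Rescaling to TPM gave 413 genes higher and 570 lower and moved the median of all genes by -0.05, and centring on the median gave 440 and 349. Leaving out the filter gave 435 and 412, a minimum mean of 5 FPKM 326 and 337, a minimum over the shikonin and TEPP-46 libraries alone 419 and 412, and leaving out short and small RNA genes 381 and 401. Among 42 list medians, that of core and variant histones changed sign, at 0.0258 with no filter on low genes against -0.30 as reported. Centring turned the medians of metallothioneins and zinc transporters, and of hypoxia-linked genes, from -0.03 to 0.01 and from -0.01 to 0.03. The small heat shock median was 0.00 with no filter, since it then held 7 genes. Of 822 genes of the lists and extremes, 23 changed sign under TPM and 20 under centring, with differences as reported of at most 0.0451 and 0.038 in size, and none under another pseudocount. With a pseudocount of 5, 46 fell under 2-fold. No paired analysis was possible because each condition had 1 library. Leaving out a replicate was not possible for the same reason, so the spread between cultures is unknown.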

Other observations

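Some gene groups were put together after their values had been seen and are given as values only. Of 43 genes of intraflagellar transport and the ciliary transition zone, which build the primary cilium, 32 were lower with shikonin and 10 passed 2-fold lower, with none 2-fold higher and a median of -0.44. Ift140 had 3.13 FPKM with shikonin, 12.5 FPKM with TEPP-46 and 4.23 FPKM with vehicle. Of 28 genes of the Fanconi pathway and homologous recombination, which repair DNA strand breaks and crosslinks, 25 were lower and 7 passed 2-fold, with a median of -0.68. Gen1, a nuclease that cuts repair junctions, had 2.89 FPKM with shikonin, 9.38 FPKM with TEPP-46 and 11.4 FPKM with vehicle. In the HAUS complex, which branches spindle microtubules, 5 of 8 genes were lower and 3 higher, beside 53.1% of all genes lower. Haus4 and Haus1 passed 2-fold lower at -1.73 and -1.51, while the median of the 8 genes was -0.37.

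On the other side, 16 of 18 subunits of the vacuolar ATPase, the lysosomal proton pump, were higher with shikonin, 3 of them by 2-fold, with a median of 0.66. Atp6v1h had 145 FPKM with shikonin, 48.2 FPKM with TEPP-46 and 50.03 FPKM with vehicle. All 8 class I histocompatibility genes compared were higher and 5 passed 2-fold, with a median of 1.03. H2-K1 had 48.7 FPKM with shikonin, 19.5 FPKM with TEPP-46 and 15.5 FPKM with vehicle, but reads may be split among these close copies.

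Below the minimum mean, Clu, an extracellular chaperone, had 4.20 FPKM with shikonin, 0.477 FPKM with TEPP-46 and 0.0178 FPKM with vehicle. Ptx3, a secreted pattern recognition protein, had 0.275 FPKM with shikonin, 2.80 FPKM with TEPP-46 and 0.631 FPKM with vehicle.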
